A study of Mus musculus with 31 samples.

Results

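The mRNAs of 9 enzymes of glycolysis and gluconeogenesis were followed in kidneys of Pcy/CD1 mice, a slowly progressing model of polycystic kidney disease, with and without the anti-miR-17 oligonucleotide RGLS4326. The 9 genes were taken by symbol from the 23509 genes counted in each kidney: Pck1, G6pc, Fbp1 and Pcx on the gluconeogenic side, and Hk1, Hk2, Pfkp, Pkm and Ldha on the glycolytic side. All 9 passed the filter on low counts, which kept 15185 genes. RNA was taken from whole frozen kidneys of 31 mice. PBS was injected under the skin of 12 male Pcy/CD1 mice, and 14 male Pcy/CD1 mice received RGLS4326 at 25 mg kg-1 by the same route, starting at 5 weeks of age and running for 25 weeks. The labels give monthly dosing for RGLS4326, whereas PBS dosing is weekly in one label field and monthly in another. The controls were 5 untreated male WT/CD1 mice of the same age. The wild-type mice received no injection, and all kidneys came from mice aged 30 weeks, so the effect of injection cannot be told apart from that of genotype in comparisons with wild type.

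Glucose is made in the kidney mainly by proximal tubule cells, from lactate, glutamine and glycerol. Pyruvate is carboxylated to oxaloacetate by Pcx, and oxaloacetate becomes phosphoenolpyruvate through Pck1. Together these reactions bypass an irreversible step of glycolysis. Fbp1 and G6pc remove phosphate from fructose 1,6-bisphosphate and glucose 6-phosphate, and each bypasses another irreversible step. Glycolysis runs the other way, through hexokinases (Hk1, Hk2), phosphofructokinase (Pfkp is its platelet-type subunit), pyruvate kinase (Pkm) and lactate dehydrogenase (Ldha), and is used more by distal nephron segments, by immune cells and by proliferating cells.

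RGLS4326 is a short, chemically modified oligonucleotide complementary to the 5′ end of miR-17, and the seed it covers is shared by several miRNAs. The mature sequence of mouse miR-17-5p, from the plus strand of chr14:115043684-115043706, is printed from RefSeq (GRCm38.p6) with its seed, bases 2 to 8, in capitals, since it sets which mRNAs could pair with the drug's target.
mmu-miR-17-5p: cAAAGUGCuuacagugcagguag
The same seed occurs in miR-20a-5p, miR-20b-5p, miR-93-5p, miR-106a-5p and miR-106b-5p, and also in miR-6383. Letters that pair with it, GCACTTT, were searched on the mRNA strand of the longest annotated 3′UTR of each gene (GENCODE vM21) and were present in 2470 of 21020 genes (11.8%). Of the 9 enzymes, G6pc and Pfkp held 1 match each and the other 7 held none. The G6pc match lies at chr11:101377832-101377838 (GRCm38, plus strand) in exon 5 of 5, and the Pfkp match at chr13:6581373-6581379 (minus strand) in exon 22 of 22, where a following A makes it an 8mer. Both are shown 5′ to 3′ with the matching bases in capitals, because these are the only members with such letters.
G6pc 3′UTR: acccacaccaaGCACTTTgtttctaatat
Pfkp 3′UTR: gttatttatcaGCACTTTatggaagcaag
A match describes letters only, and no binding was measured. By the study's methods, Pfkp is also part of a signature of miR-17 target genes, selected in cultured cells and used to read miR-17 activity in vitro. The shorter gene set that the study used in kidneys of Pkd2-KO mice leaves Pfkp out.

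Promoters of 4 members are printed from RefSeq (GRCm38.p6), from 250 bases before to 50 after the annotated start, because of how these genes moved: G6pc and Hk2 changed most between PBS and wild type, Pck1 was the member that changed most with RGLS4326, and Ldha went against the other glycolytic genes. Capitals mark matches, on either strand, to TGACGTCA or its core TGACG (the cAMP response element), ACGTG (the core of a hypoxia response element) and TATAAA (the TATA box). The Pck1 window is chr2:173152823-173153122 (plus strand), that of G6pc chr11:101367466-101367765 (plus strand), that of Hk2 chr6:82774405-82774704 (minus strand) and that of Ldha chr7:46845554-46845853 (plus strand).
Pck1 promoter: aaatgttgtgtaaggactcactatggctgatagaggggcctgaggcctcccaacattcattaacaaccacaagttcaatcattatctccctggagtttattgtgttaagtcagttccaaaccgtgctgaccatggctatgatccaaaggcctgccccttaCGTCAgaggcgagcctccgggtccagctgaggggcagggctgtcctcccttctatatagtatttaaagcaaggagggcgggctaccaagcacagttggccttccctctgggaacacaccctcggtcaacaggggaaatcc
G6pc promoter: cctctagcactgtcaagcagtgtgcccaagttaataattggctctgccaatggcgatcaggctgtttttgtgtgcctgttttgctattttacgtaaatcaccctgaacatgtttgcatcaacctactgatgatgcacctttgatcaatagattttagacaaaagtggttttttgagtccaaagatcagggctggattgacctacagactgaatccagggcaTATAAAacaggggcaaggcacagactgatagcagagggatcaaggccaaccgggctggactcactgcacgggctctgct
Hk2 promoter: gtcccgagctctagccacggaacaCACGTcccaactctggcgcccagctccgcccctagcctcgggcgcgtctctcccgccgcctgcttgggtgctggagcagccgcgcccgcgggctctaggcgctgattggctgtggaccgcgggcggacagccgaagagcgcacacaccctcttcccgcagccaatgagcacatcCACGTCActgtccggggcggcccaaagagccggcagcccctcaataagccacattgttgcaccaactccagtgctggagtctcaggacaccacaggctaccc
Ldha promoter: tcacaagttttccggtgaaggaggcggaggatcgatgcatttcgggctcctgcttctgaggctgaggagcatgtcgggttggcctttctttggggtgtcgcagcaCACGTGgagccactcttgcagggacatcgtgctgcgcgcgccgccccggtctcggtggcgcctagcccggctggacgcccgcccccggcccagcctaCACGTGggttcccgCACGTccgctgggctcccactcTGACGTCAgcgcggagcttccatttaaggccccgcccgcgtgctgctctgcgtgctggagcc
Counting the first transcribed base as 0, TGACG matched the Pck1 window on the opposite strand at -90, and TATAAA matched that of G6pc at -29. ACGTG occurred at -226 and -52 in Hk2, the second overlapping a TGACG match at -50. In Ldha it occurred at -145, -144, -48, -47 and -34, where the CACGTG palindromes at -145 and -48 each give a match on both strands, and TGACGTCA stood at -12. Among 32851 RefSeq promoters of this length, 19.6% held ACGTG, 7.15% CACGTG, 20.8% TGACG, 1.79% TGACGTCA and 13.6% TATAAA. Neither Fbp1 nor Pfkp held any of these 5 motifs in its window.

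Counts on genes ranged from 14892524 to 27459962 per mouse (median 19961466). Values are given as CPM, the deposited counts per TMM-scaled library size, and fold changes come from 1 edgeR model of all 31 mice. One library stood apart from its group: RGLS4326-treated mouse 9 lay at or near the wild-type levels of G6pc, Fbp1, Pcx, Pfkp and Ldha, so differences between treatments are also given without it. WT/CD1 mice 3 and 4 were the most alike pair of libraries, although counting error does not cover the gap between them (over 10690 genes the mean chi-square was 2.84, about 1 being expected of a single library read again), and both were kept. Litters and cages are not given in the sources used here. The proximal tubule list, which stands for the cells that make glucose, had 8 of 8 markers detected, with a summed level of 21707 to 23820 CPM in wild type, 6303 to 12800 with PBS and 8489 to 19898 with RGLS4326 (14810 at most without mouse 9).

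Ordered by level per kilobase of exon, wild-type kidneys ranked Fbp1 first (1029 ± 54.7 CPM per kb, SD, n = 5), followed by Pck1 (769 ± 123), Ldha (452 ± 10.4), G6pc (417 ± 51.7), Pcx (208 ± 19.3), Pkm (108 ± 3.66), Hk1 (30.0 ± 0.247), Pfkp (14 ± 1.68) and Hk2 (0.151 ± 0.0609). Ldha and G6pc were the only neighbours in this order whose ranges overlapped. With PBS, Fbp1 was still first on this scale (495 ± 122 CPM per kb, SD, n = 12), Ldha came second (372 ± 30.1), and G6pc had dropped to sixth (92.4 ± 36.1). In that group each of the first 6 genes overlapped its next neighbour except G6pc, which stayed above Hk1 (33.3 ± 2.40) in every mouse. With RGLS4326 the levels per kb were 597 ± 135 for Fbp1, 486 ± 187 for Pck1, 385 ± 27.5 for Ldha and 121 ± 63.8 for G6pc (SD, n = 14), and Ldha stood above Pkm (141 ± 8.48) in every mouse.

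**Figure D1:**
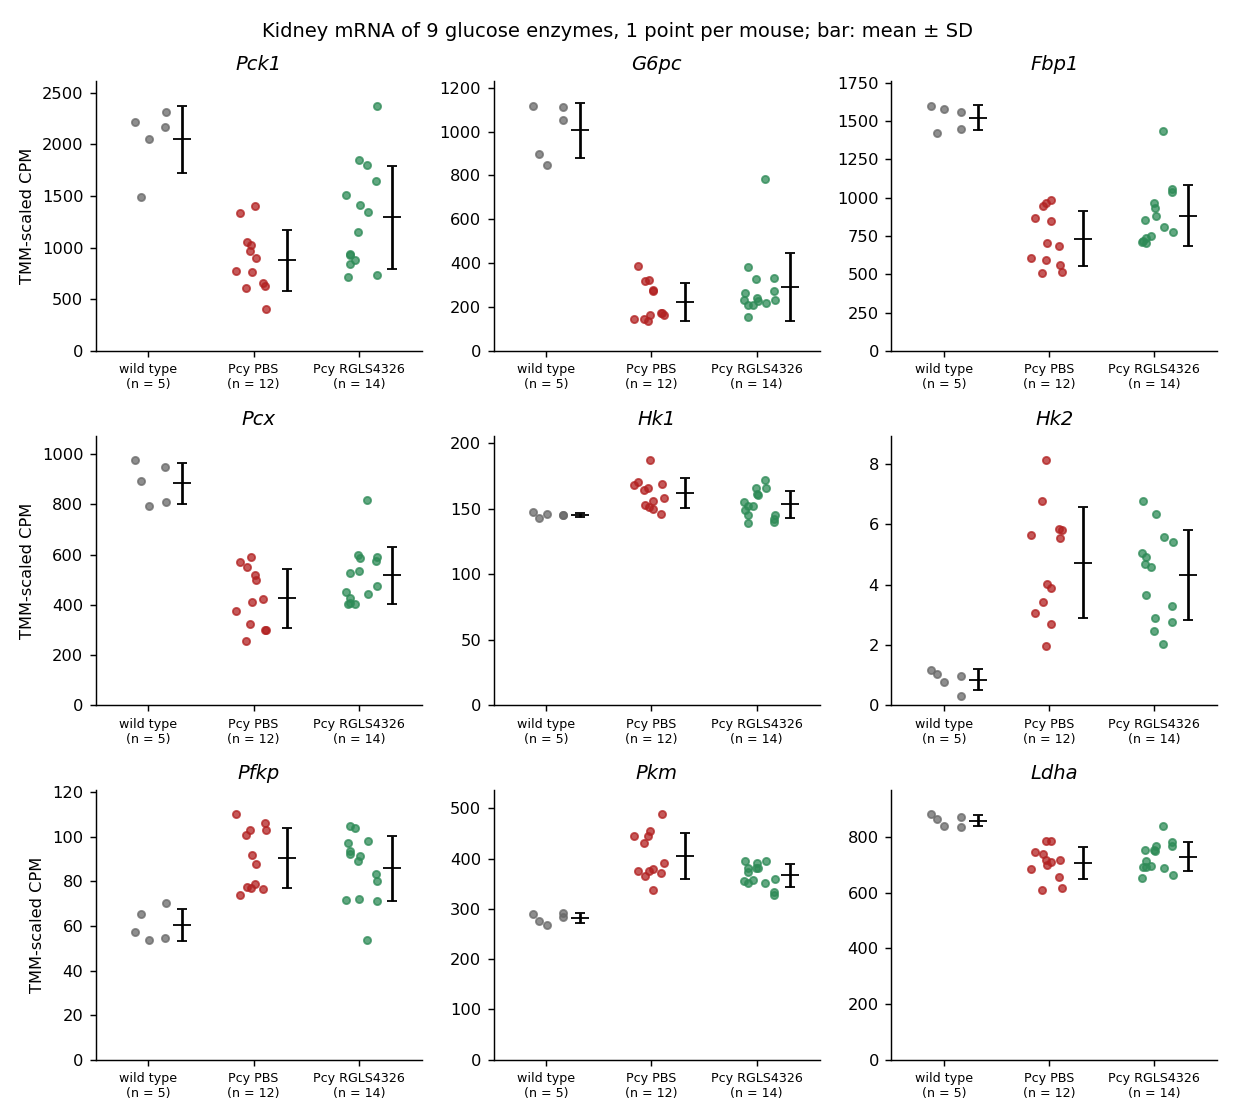
TMM-scaled CPM (vertical axis, from 0) of the 9 enzymes in each mouse, with 1 point per mouse, in wild type (n = 5), Pcy PBS (n = 12) and Pcy RGLS4326 (n = 14); bars give the mean ± SD. The 4 gluconeogenic genes are lower in both Pcy groups, Hk2, Pfkp and Pkm are higher, and 1 RGLS4326-treated mouse sits at 785 CPM of G6pc, far above the others of its group.

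In PBS-treated Pcy kidneys all 4 gluconeogenic enzymes were lower than in wild type, and 4 of the 5 glycolytic enzymes were higher. G6pc, the last step of glucose release, fell most, to 0.222-fold, while Hk2, a hexokinase that is scarce in normal kidney, rose 5.57-fold. Ldha was the exception on the glycolytic side and fell to 0.823-fold. The share of all tested genes that passed at an adjusted p under 0.05 was 37.7% higher and 36.6% lower in this comparison, so passing alone sets a member little apart. With a log2 fold change over 0.5 in size as well, 3 members were higher and 4 lower, against 24.6% and 17.8% of all genes. Groups did not overlap for 8 of 9 members, against 42.2% of all genes. The median log2 fold change was -1.14 for the gluconeogenic and 0.52 for the glycolytic members, and 0.010 for all genes tested.

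G6pc encodes the catalytic subunit of glucose-6-phosphatase (chr11:101367561-101377903, plus strand, GRCm38). Its level was 847, 1052, 1119, 1111 and 899 CPM in WT/CD1 mice 1 to 5, whereas PBS-treated mice spanned 136 to 388 CPM (median 171). No PBS-treated mouse came near the lowest wild-type value. The log2 fold change was -2.17 (standard error 0.26, Benjamini-Hochberg adjusted p = 3.06e-08 by the quasi-likelihood test of edgeR). In whole kidney RNA, fewer cells of a type and less RNA per cell cannot be told apart.

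Pck1, the cytosolic phosphoenolpyruvate carboxykinase (chr2:173153048-173159273, plus strand), measured 2054, 2309, 2216, 2167 and 1486 CPM in wild type. PBS-treated mice had 405 to 1398 CPM (median 837), and the groups were separated by a narrow gap that rests on wild-type mouse 5. The log2 difference was -1.22 (standard error 0.24, adjusted p = 4.27e-05, same edgeR test).

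Fbp1, the fructose bisphosphatase of liver and kidney (chr13:62864753-62888282, minus strand), varied little among wild-type mice, at 1577, 1451, 1601, 1559 and 1419 CPM. It spanned 510 to 983 CPM with PBS (median 697), below every wild-type kidney, for a log2 difference of -1.06 (standard error 0.15, adjusted p = 4.04e-07 by edgeR). Pcx, the mitochondrial pyruvate carboxylase (chr19:4510472-4621752, plus strand), read 792, 808, 976, 948 and 892 CPM in wild type and 254 to 592 CPM with PBS (median 418). Its log2 fold change, -1.05 (standard error 0.16, adjusted p = 1.42e-06, edgeR), was almost that of Fbp1, and its groups were likewise separate.

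Among hexokinases, Hk2 (chr6:82725025-82774454, minus strand) was at 0.767, 0.297, 1.18, 0.969 and 1.02 CPM in wild type, which rests on 5 to 20 reads per mouse. Every PBS-treated mouse exceeded this range, with 1.95 to 8.13 CPM (median 4.77) from 33 to 173 reads. The log2 fold change was 2.48 (standard error 0.35, adjusted p = 3.67e-07, edgeR), yet the level stayed far below that of Hk1. Hk1, the housekeeping hexokinase (chr10:62268855-62379908, minus strand), was the steadiest member in wild type, at 146, 145, 147, 145 and 143 CPM, and reached 146 to 187 CPM (median 161) with PBS. It was the only member whose PBS and wild-type ranges overlapped, with 11 of 12 PBS-treated mice above all wild-type mice and a log2 difference of 0.15 (standard error 0.05, adjusted p = 0.0102, edgeR). The Hk1 call was lost within the first and second index series (0.11 and 0.09), where an index series is a run of library numbers that restarts within each group, and with mouse number as a block (0.13, adjusted p = 0.0541).

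Pfkp (chr13:6579768-6648777, minus strand), a subunit of the enzyme that commits glucose to glycolysis, had 53.7, 70.4, 57.5, 54.7 and 65.2 CPM in wild type and 74.1 to 110 CPM with PBS (median 89.8). Pkm, which makes pyruvate and ATP (chr9:59656368-59679375, plus strand), had 268, 291, 289, 285 and 276 CPM in wild type and 337 to 488 CPM with PBS (median 386). Both genes were higher in every PBS-treated kidney than in any wild-type kidney, with log2 fold changes of 0.59 for Pfkp (standard error 0.12, adjusted p = 9.12e-05) and 0.52 for Pkm (standard error 0.07, adjusted p = 8.81e-08, edgeR for both). The counts do not separate the muscle-type isoforms that Pkm makes by splicing. Exons of Pfkp overlap those of Pitrm1 on the other strand and exons of Pkm overlap an uncharacterised transcript on the same strand, and the strand setting of the counting is not given in the sources used here.

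Ldha (chr7:46841475-46855627, plus strand), the subunit that favours turning pyruvate into lactate, was at 838, 835, 880, 870 and 863 CPM in wild type and fell to 610 to 786 CPM with PBS (median 714). The change was small but no PBS-treated mouse reached the wild-type range, and the log2 difference was -0.28 (standard error 0.06, adjusted p = 9.35e-05, edgeR). The call was lost within the first index series (-0.24, edgeR adjusted p = 0.0855) and within the second (-0.27, 0.0753), which left 7 of 9 members called in each. Ldha and Pkm have near-identical processed copies in the mouse genome, and only uniquely mapped reads were counted, so part of their reads may be missing in every library.

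**Figure D2:**
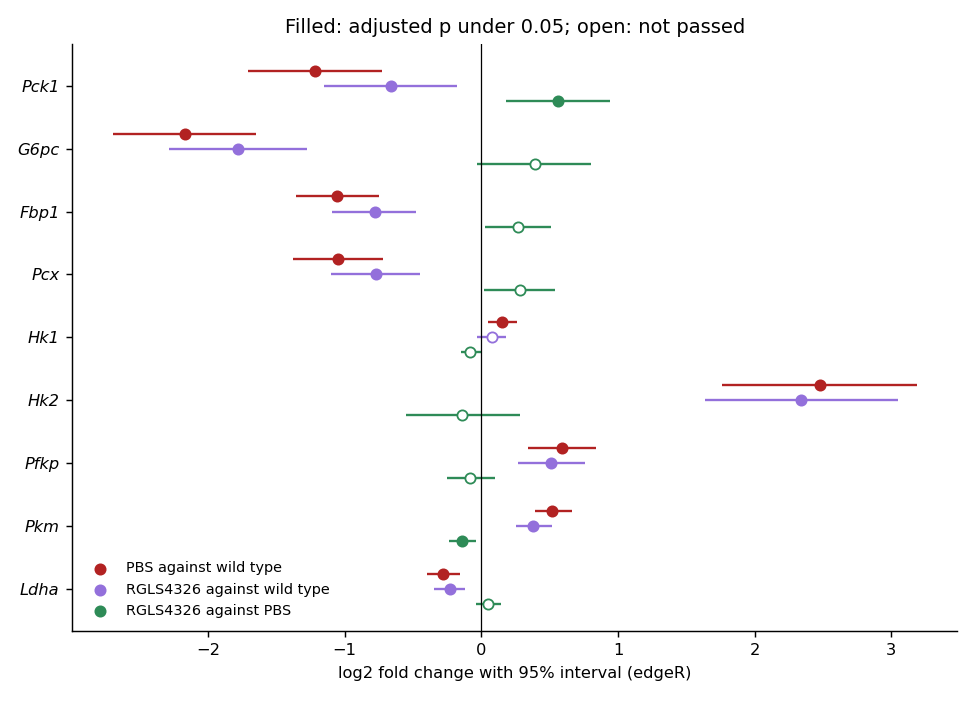
Log2 fold changes from edgeR (horizontal axis) with 95% intervals for the 9 enzymes in 3 comparisons; filled points passed an adjusted p under 0.05 and open points did not. Against wild type, PBS ranged from -2.17 for G6pc to 2.48 for Hk2, and RGLS4326 against PBS passed for Pck1 (0.56) and Pkm (-0.14).

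Treatment with RGLS4326 was compared with PBS to see whether these mRNAs moved in Pcy kidneys. Pck1 was 1.48-fold higher and Pkm 0.906-fold as high in RGLS4326-treated mice, and the other 7 members did not pass. Of all genes tested, 9.15% were higher and 6.66% lower with RGLS4326 by edgeR, 12.4% and 8.74% by DESeq2, and 4.66% and 3.48% by edgeR without RGLS4326-treated mouse 9. Adding the requirement of a log2 fold change over 0.5 in size left Pck1 alone, where 0.935% of all genes were higher and 1.22% lower. The groups overlapped for every member, as for all genes (0% without overlap). Median log2 fold changes were 0.33 for the 4 gluconeogenic members, -0.08 for the 5 glycolytic members and -0.004 for all genes.

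Pck1 spanned 405 to 1398 CPM with PBS (median 837) and 717 to 2375 CPM with RGLS4326 (median 1247), and 6 of 14 RGLS4326-treated mice were above every PBS-treated mouse. The highest was RGLS4326-treated mouse 13, which exceeded the wild-type maximum, and the 2 lowest Pcy values were those of PBS-treated mice 2 and 10. The log2 fold change was 0.56 (95% interval 0.18 to 0.94, Benjamini-Hochberg adjusted p = 0.0421 by the quasi-likelihood test of edgeR). Within the 3 index series it was 0.24, 0.37 and 0.94, none of which passed (edgeR adjusted p = 1, 0.432 and 0.172), and a test of whether the effect differed between series gave an adjusted p of 0.944 (edgeR). The call ended when any 1 of 13 mice was left out, namely PBS-treated mice 2, 3, 5, 6, 9, 10 and 11 and RGLS4326-treated mice 6, 8, 9, 10, 13 and 14, with log2 fold changes of 0.47 to 0.57 and adjusted p of 0.057 to 0.0844 (edgeR).

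Pkm spanned 337 to 488 CPM with PBS and 327 to 395 CPM with RGLS4326, with medians of 386 and 366. PBS-treated mice 3, 5, 9, 10 and 11 were above all RGLS4326-treated mice, RGLS4326-treated mice 8 and 13 were below all PBS-treated mice, and the others overlapped. The log2 fold change was -0.14 (95% interval -0.24 to -0.04, adjusted p = 0.0438, edgeR), and -0.05, -0.11 and -0.26 within the index series, where none passed (edgeR adjusted p = 1, 0.4 and 0.189). Leaving out any 1 of 17 mice ended the call, namely wild-type mice 2, 3 and 4, PBS-treated mice 2, 3, 5, 9, 10 and 11 and RGLS4326-treated mice 1, 3, 6, 7, 8, 9, 10 and 13, with log2 fold changes of -0.15 to -0.12 and adjusted p of 0.0504 to 0.0909.

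For the other gluconeogenic enzymes the point estimates were above 0 without passing. G6pc spanned 155 to 785 CPM with RGLS4326 (median 239) against a median of 171 CPM with PBS, and its log2 difference was 0.39 (95% interval -0.03 to 0.80, adjusted p = 0.163, edgeR). Without RGLS4326-treated mouse 9, the only one above the PBS range, this became 0.19 (adjusted p = 0.425). Fbp1 spanned 701 to 1435 CPM with RGLS4326 (median 833), a log2 difference of 0.27 (95% interval 0.03 to 0.51, adjusted p = 0.0913), and 0.20 without mouse 9. Pcx spanned 402 to 818 CPM (median 501), a log2 difference of 0.28 (95% interval 0.02 to 0.54, adjusted p = 0.106), and 0.21 without that mouse. The lowest RGLS4326-treated mice lay well above the lowest PBS-treated mice in Fbp1 and Pcx, and 3 RGLS4326-treated mice in Fbp1 and 2 in Pcx were above every PBS-treated mouse.

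On the glycolytic side, Hk2 spanned 2.04 to 6.76 CPM with RGLS4326 (median 4.62), inside the PBS range, with a log2 difference of -0.14 (95% interval -0.55 to 0.28, adjusted p = 0.64, edgeR). Hk1 spanned 139 to 172 CPM (median 152; log2 difference -0.08, interval -0.15 to 0.00, adjusted p = 0.145). Pfkp, one of the 2 members with seed-matching letters, spanned 53.5 to 105 CPM (median 90.3). It belongs to the signature used in vitro but not to the set used in kidneys. Its log2 difference of -0.08 had an interval of -0.25 to 0.10 (adjusted p = 0.541). Ldha spanned 653 to 840 CPM (median 732), and a log2 difference of 0.05 had an interval of -0.04 to 0.14 (adjusted p = 0.441). These intervals leave room for changes of either sign in Hk2, Pfkp and Ldha. Without RGLS4326-treated mouse 9 the log2 differences were -0.08 for Hk2, -0.09 for Hk1, -0.03 for Pfkp and 0.03 for Ldha, and none passed (edgeR adjusted p = 0.804, 0.105, 0.786 and 0.637).

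RGLS4326-treated kidneys were also set against wild type, a comparison that shares its mice with both of the others. Of the 9 members, 3 were higher and 5 lower, against 32.5% and 32.4% of all genes, and Hk1 did not pass (log2 difference 0.08, 95% interval -0.03 to 0.18, adjusted p = 0.193, edgeR). With the added size threshold 2 were higher and 4 lower, against 20.3% and 11.3% of all genes, and 3 had groups that did not overlap, G6pc, Hk2 and Pkm, against 14.8% of all genes. G6pc was 0.29-fold (log2 -1.78, adjusted p = 1.09e-06), Fbp1 0.58-fold (-0.78, adjusted p = 4.5e-05), Pcx 0.585-fold (-0.77, adjusted p = 0.000137) and Pck1 0.632-fold the wild-type level (-0.66, adjusted p = 0.0163). Hk2 was 5.07-fold (2.34, adjusted p = 2.18e-06), Pfkp 1.43-fold (0.51, adjusted p = 0.000531), Pkm 1.3-fold (0.38, adjusted p = 1.49e-05) and Ldha 0.85-fold (-0.23, adjusted p = 0.00084). In Fbp1, Pcx, Pfkp and Ldha, 13 of 14 RGLS4326-treated mice lay beyond the wild-type range, and mouse 9 was the exception in each. Pck1 differed from these, since 5 RGLS4326-treated mice reached wild-type levels. Without mouse 9 the log2 difference of G6pc was -1.98, those of Fbp1 and Pcx were -0.85 and -0.84, and 8 members were still called. The Ldha call was lost within the first index series (-0.24, edgeR adjusted p = 0.0897) and within the second (-0.21, 0.213), where 0 members were called and 7 had an unadjusted p under 0.05 (edgeR).

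The gluconeogenic enzymes and the markers of the proximal tubule were both lower with PBS than in wild type. All 8 proximal tubule markers were lower with PBS than in wild type (36.6% of all genes were), 4 of 8 by edgeR and 7 of 8 by DESeq2 were higher with RGLS4326 than with PBS (9.15% and 12.4% of all genes), and all 8 were lower with RGLS4326 than in wild type. Between treatments all 8 had an unadjusted p under 0.05 in edgeR, with RGLS4326-treated mouse 9 and without it, but without it 1 of 8 passed adjustment (4.66% of all genes were higher). None of them was at 0 in any group. By group medians, Slc5a2, the glucose transporter of the early proximal tubule, fell least of the 8. It had a median of 601 CPM in wild type and 320 CPM with PBS. Slc13a3 fell most, from a median of 1395 CPM in wild type to 344 CPM with PBS. Dividing each member by the summed markers of its own library is a description with no test, and its differences are mean log2 values. The division shifts every gene of a comparison by the same log2 amount, upward against wild type and downward between treatments. Gaps between members stay as they were, and changes of sign or size on this scale follow from that common shift. The sum includes transporters that are themselves lower in disease.

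On this scale Pck1 was 9.01 ± 1.31 CPM per 100 CPM of markers in wild type (SD, n = 5) and 9.22 ± 2.38 with PBS (SD, n = 12), a log2 difference of 0.00 where plain CPM gave -1.29. Fbp1 and Pcx turned from -1.10 each to 0.19 each. G6pc did not follow the sum: it was 4.44 ± 0.622 per 100 CPM of markers in wild type and 2.28 ± 0.376 with PBS. This was a log2 difference of -0.97, and these ranges did not overlap. Slc13a3, a marker within the sum, also fell more steeply than the sum, from a mean of 1287 CPM in wild type to 355 with PBS. With RGLS4326, G6pc stood at 2.28 ± 0.640 (SD, n = 14), so -0.03 from PBS and -1.0 from wild type on the log2 scale, while Pck1 kept 0.16 of its 0.54 over PBS. Between treatments Fbp1 went from 0.28 to -0.11 and Pcx from 0.30 to -0.08, so after the common shift 3 of the 4 gluconeogenic members lay below 0. Ldha turned from -0.28 to 1.0 between PBS and wild type and from 0.05 to -0.34 between treatments. The other glycolytic members kept their signs, and the common shift placed them further from 0. For PBS against wild type Hk1 went from 0.15 to 1.44, Hk2 from 2.51 to 3.80, Pfkp from 0.58 to 1.87 and Pkm from 0.52 to 1.81. Between treatments Hk1 went from -0.08 to -0.46, Hk2 from -0.11 to -0.50, Pfkp from -0.08 to -0.47 and Pkm from -0.14 to -0.53.

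**Figure D3:**
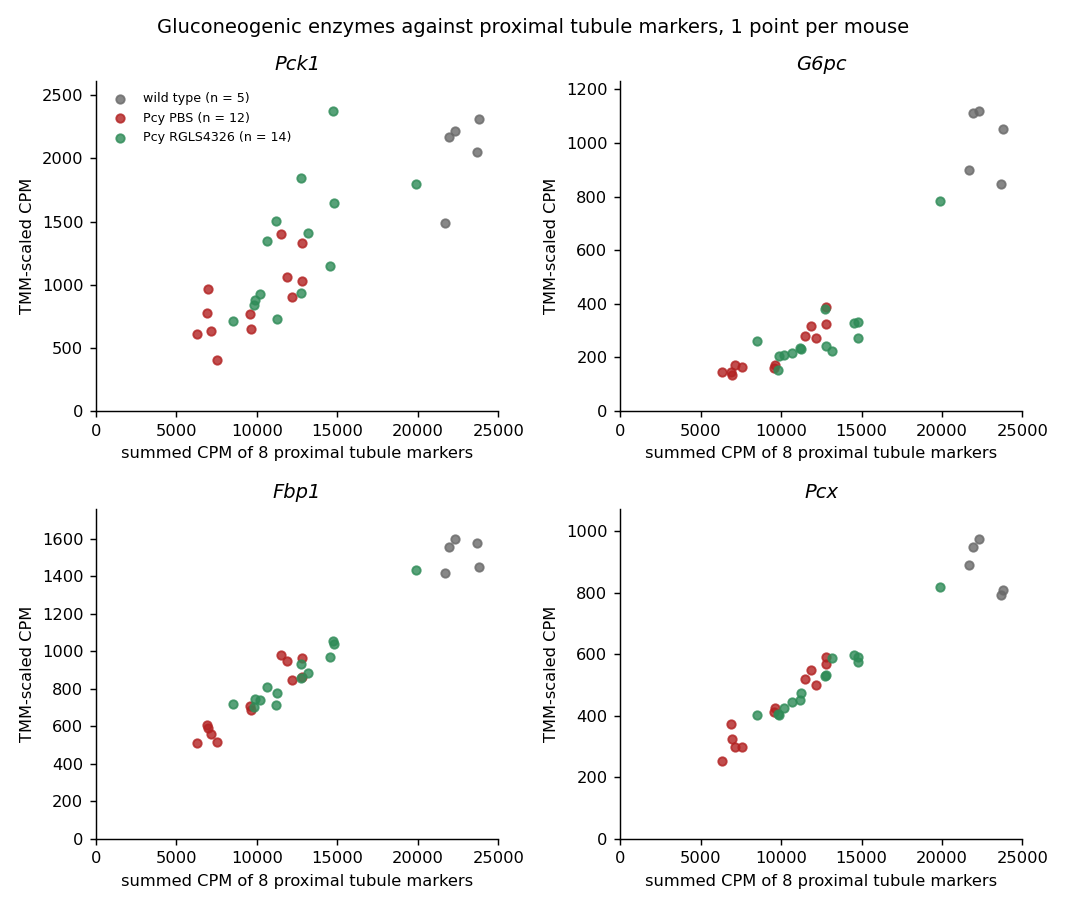
TMM-scaled CPM of the 4 gluconeogenic enzymes (vertical axes, from 0) against the summed CPM of 8 proximal tubule markers (horizontal axes, from 0), with 1 point per mouse, coloured by group. Fbp1 and Pcx lie along a line through all 3 groups, Pck1 scatters around one, and in G6pc the wild-type mice and 1 RGLS4326-treated mouse stand above the trend of the other Pcy mice.

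Markers of some other cell types rose with PBS beside the glycolytic genes, and those of others did not. Their counts stand beside 37.7% of all genes higher and 36.6% lower for PBS against wild type, 9.15% and 6.66% between treatments by edgeR, and 32.5% and 32.4% for RGLS4326 against wild type. In PBS-treated kidneys 6 of 6 macrophage markers were higher than in wild type, with sums of 182 to 208 CPM in wild type, 419 to 702 with PBS and 187 to 796 with RGLS4326, and between treatments 0 of 6 passed by edgeR or DESeq2, with 1 at an unadjusted p under 0.05, while without RGLS4326-treated mouse 9 edgeR called 1 of 6 higher. All 6 fibroblast markers (sums of 118 to 166, 391 to 830 and 188 to 872 CPM) and all 4 injured tubule markers (13.7 to 38.1, 327 to 1383 and 23.6 to 824 CPM) were higher with PBS than in wild type. Between treatments 0 of 6 and 0 of 4 passed by edgeR or DESeq2. All 4 lymphocyte markers were also higher with PBS (sums of 2.14 to 3.25, 4.82 to 12.2 and 3.02 to 11.1 CPM). Of these, 0 of 4 passed between treatments by edgeR or DESeq2, with 1 at an unadjusted p under 0.05. The 4 principal cell markers of the collecting duct rose with PBS (sums of 423 to 767 CPM in wild type and 1296 to 2783 with PBS) and, as Pkm did, fell with RGLS4326 (726 to 1951 CPM). Other lists did not rise as a whole with PBS by edgeR. Of distal convoluted tubule markers 2 of 3 were lower than in wild type. Thick ascending limb markers had 1 of 4 higher and 1 lower, and intercalated cell markers 1 of 4 higher and 2 lower. Of endothelial markers 1 of 4 was lower, and of podocyte markers 1 of 4 was higher. The part of all these cells in the results on Hk2, Pfkp, Pkm and Ldha was not tested. Adipocytes and hepatocytes also make Pck1 and Pcx. The adipocyte sum was 0.121 to 3.43 CPM in wild type, 0.0451 to 77.8 with PBS and 0 to 95.3 with RGLS4326, with 0 of 4 markers passing between treatments by edgeR or DESeq2, 0 at an unadjusted p under 0.05, 1 of 4 higher with PBS and 3 of 4 higher with RGLS4326 than in wild type by edgeR, and Adipoq at 0 in at least 1 mouse of each group. The hepatocyte sum was 21.7 to 226, 8.77 to 64.7 and 8.45 to 430 CPM, with 3 of 4 markers lower with PBS than in wild type and 2 of 4 higher with RGLS4326 (0 without mouse 9, 1 at an unadjusted p under 0.05 by edgeR), and their part in the results was not tested.

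Ratios of isozymes compare genes within a library, and 9 of 15 comparisons over 5 ratios that hold a member passed after Benjamini-Hochberg adjustment over 18 comparisons (two-sided permutation tests of mice, exact against wild type). The log2 ratio of Hk2 to Hk1 rose from -6.80 ± 0.43 in wild type to -5.04 ± 0.52 with PBS, with no overlap and an adjusted permutation p of 0.000619, and was -5.06 ± 0.51 with RGLS4326. As Hk2 is scarce, the difference between PBS and wild type, 1.77 with a pseudocount of 0.5 CPM, was 2.20 with a pseudocount of 0.1 and 0.57 with one of 5 (adjusted exact permutation p = 0.000619 and 0.00145). The cytosolic to mitochondrial ratio Pck1/Pck2 was 6.66 ± 0.27 in wild type, 4.59 ± 0.63 with PBS and 5.39 ± 0.72 with RGLS4326. Its difference between treatments, 0.80, passed (adjusted permutation p = 0.0136; 0.70 and 0.0187 without mouse 9), as did that between PBS and wild type, -2.06 (adjusted exact permutation p = 0.000619).

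Ldha/Ldhb dropped by 0.31 on the log2 scale between wild type and PBS (adjusted exact permutation p = 0.000619), so Ldha fell against the subunit that favours pyruvate. Pfkp/Pfkl was higher by 0.33 with PBS (adjusted exact permutation p = 0.014) and by 0.36 with RGLS4326 (0.0356 by the same test) than in wild type. The latter call was lost without any 1 of wild-type mice 1, 3 and 4 and RGLS4326-treated mice 3 and 8, with differences of 0.31 to 0.35. Pkm/Pklr was 2.90 ± 0.14 in wild type, 2.88 ± 0.21 with PBS and 2.91 ± 0.24 with RGLS4326, and did not pass in any comparison.

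**Figure D4:**
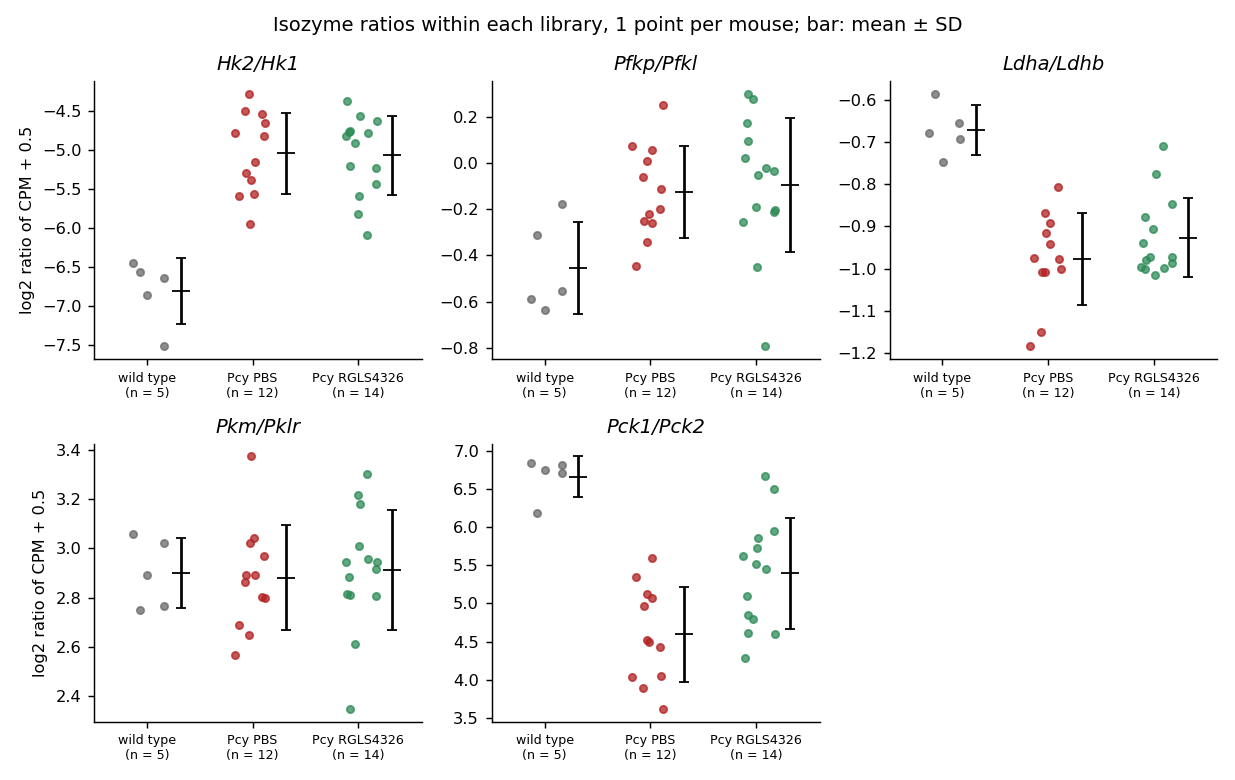
Log2 ratios of isozyme pairs (vertical axes) in each mouse, with 1 point per mouse and bars for the mean ± SD in wild type (n = 5), Pcy PBS (n = 12) and Pcy RGLS4326 (n = 14). Hk2/Hk1 rises and Pck1/Pck2 and Ldha/Ldhb fall from wild type to PBS, while Pkm/Pklr stays near 2.9 in all 3 groups.

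The other genes of glucose metabolism were taken from pathway lists, chosen with earlier results of these data known, and counts leave out the 9 members. They stand beside 37.7% of all genes higher and 36.6% lower with PBS than in wild type, and, for genes higher with RGLS4326 than with PBS, 9.15% by edgeR, 12.4% by DESeq2 and 4.66% by edgeR without mouse 9. Of 9 genes that supply substrates for gluconeogenesis, 9 were lower with PBS than in wild type (median log2 fold change -0.74), among them Glud1, which releases ammonia from glutamate (-0.74), and Got2, the mitochondrial aspartate aminotransferase (-0.75). With RGLS4326, 3 of these 9 by edgeR and 6 by DESeq2 were higher than with PBS (1 by edgeR without mouse 9), among them Mdh2, the mitochondrial malate dehydrogenase (0.16, adjusted p = 0.0375, edgeR). Of the 4 other enzymes specific to gluconeogenesis 1 was higher and 1 lower with PBS. Slc37a4, the carrier that brings glucose 6-phosphate to G6pc, fell (-1.19, adjusted p = 5.19e-07), and Pck2, the mitochondrial isozyme of Pck1, rose (0.81, adjusted p = 2.76e-06). Between treatments neither passed by edgeR (0.37, adjusted p = 0.0517, and -0.26, adjusted p = 0.0523), with both at an unadjusted p under 0.05, and both passed by DESeq2 (adjusted p = 0.0336 and 0.0404).

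Of 2 other hexokinases tested, Hk3, which is typical of myeloid cells, rose with PBS from a median of 0.662 to 2.71 CPM (log2 fold change 1.79, adjusted p = 3.09e-05, edgeR), and Hkdc1 did not pass (0.10). Among 15 further glycolytic enzymes 5 were higher and 7 lower with PBS, with a median of -0.14, so this list did not move one way. Eno2, the neuronal-type enolase, rose (2.33), and Pgam1 fell (-0.54, adjusted p = 9.4e-08). With RGLS4326, Pgam1 was higher (0.15, adjusted p = 0.0478) and Eno3, the muscle-type enolase, was lower (-0.23, adjusted p = 0.019) than with PBS, the 2 of 15 that edgeR called. DESeq2 called 4, and edgeR 1 without mouse 9. Of 5 enzymes that set fructose 2,6-bisphosphate, the switch between the pathways, 2 were higher and 2 lower with PBS, Pfkfb2 among the latter (-0.58), and with RGLS4326 edgeR called Pfkfb3 alone (-0.24, adjusted p = 0.0457). DESeq2 called Pfkfb2 as well (0.16, adjusted p = 0.049), and without mouse 9 edgeR called 0 of 5, with 3 at an unadjusted p under 0.05.

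Pyruvate entry into mitochondria and lactate transport had 16 genes, of which 3 were higher and 10 lower with PBS (37.7% and 36.6% of all genes). The carrier subunit Mpc1 (-0.82) and Dlat of the pyruvate dehydrogenase complex (-0.68) fell, and 5 of 16 by edgeR and 9 by DESeq2 were higher with RGLS4326 than with PBS (1 by edgeR without mouse 9; 9.15%, 12.4% and 4.66% of all genes), Pdha1 (0.26, adjusted p = 0.0281, edgeR) and Dlat (0.19) among them. Slc16a3, a lactate exporter, was higher than in wild type both with PBS (2.48) and with RGLS4326 (2.08), at means of 0.776 CPM in wild type, 4.34 with PBS and 3.3 with RGLS4326. In the fructose and polyol pathway 4 of 5 genes were lower with PBS, including Sord (-1.12) and Dak, the triose kinase (-0.66), and both of these were higher with RGLS4326 (0.35 and 0.24), whereas without mouse 9 edgeR called 0 of 5, with 3 at an unadjusted p under 0.05. The pentose phosphate pathway was mixed, with 3 of 7 higher (Tkt, 0.33) and 2 lower (Rpe, -0.58) with PBS and 0 of 7 passing between treatments by edgeR or DESeq2, with Tkt alone at an unadjusted p under 0.05 in edgeR (0.0375). Of 7 glycogen genes 1 was higher and 4 were lower with PBS, Ugp2 and Gbe1 by -0.96 each, and with RGLS4326 Ugp2 was higher (0.32) and Pygb lower (-0.23), calls that edgeR lost without mouse 9 (0 of 7, 2 at an unadjusted p under 0.05).

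Of 14 transcriptional regulators of these enzymes, 10 were lower and 3 higher with PBS than in wild type (36.6% and 37.7% of all genes), with a median of -0.49. Ppara, a receptor that drives fasting metabolism, fell from a median of 214 to 71.2 CPM (log2 fold change -1.50, adjusted p = 4.69e-08, edgeR), and Nr3c1, the glucocorticoid receptor, fell as well (-0.91). With RGLS4326, Hnf4a, a proximal tubule and liver regulator, was higher than with PBS (0.35, adjusted p = 0.0213), as was Esrra (0.23, adjusted p = 0.0314, edgeR), and the other 12 did not pass by edgeR. DESeq2 called 5 of 14, all higher and Ppara among them (0.39, adjusted p = 0.0405), while edgeR called 1 without mouse 9. Hnf4a had a median of 1101 CPM in wild type, 608 with PBS and 766 with RGLS4326, and the Pcy groups overlapped.

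**Figure D5:**
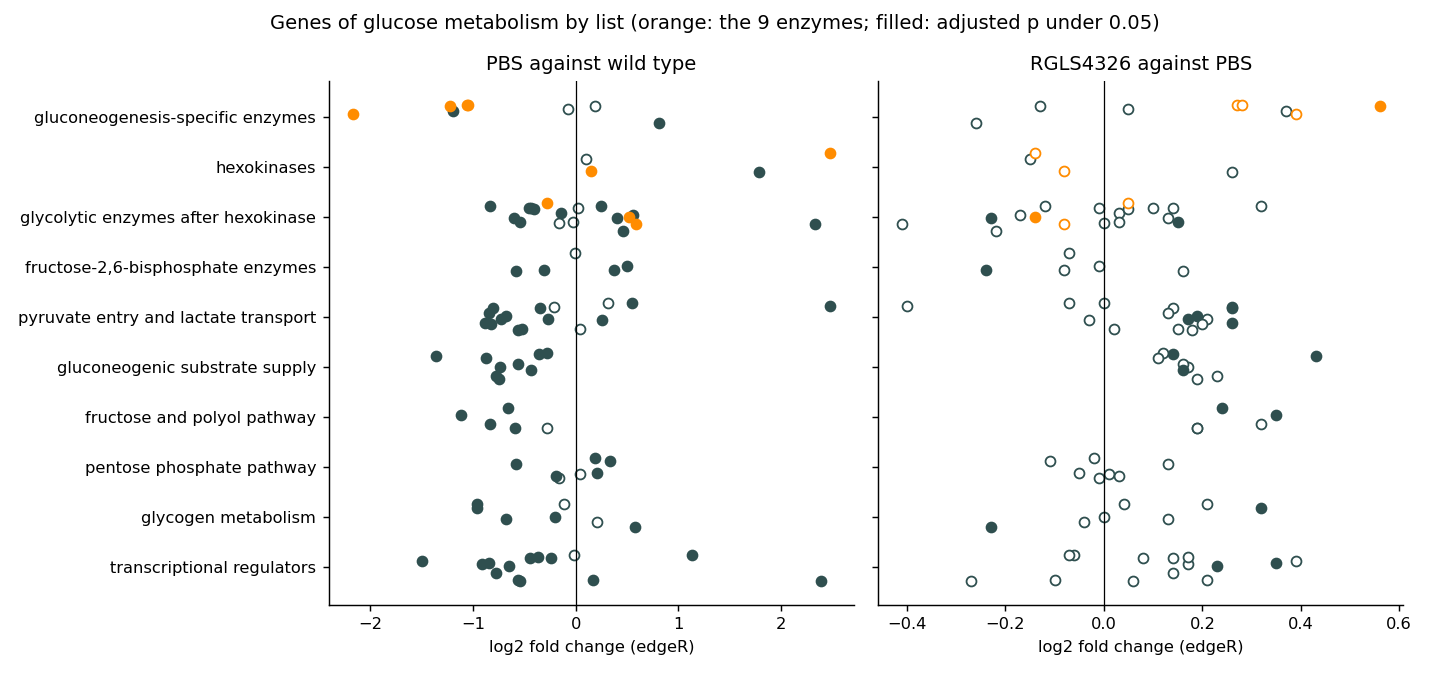
Log2 fold changes from edgeR (horizontal axes) of all tested genes in 10 lists of glucose metabolism, with 1 point per gene, for PBS against wild type on the left and RGLS4326 against PBS on the right; orange marks the 9 enzymes and filled points passed an adjusted p under 0.05. Substrate supply genes all lie left of 0 in the first comparison, and the second comparison spans a much narrower scale.

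Among the 26 Pcy mice, after subtracting each group's mean of log2(CPM + 1), 27 of 36 pairs of members correlated past Benjamini-Hochberg adjustment (two-sided permutation tests, of which 1e-05 is the smallest p possible). Fbp1 and Pcx rose and fell together most closely, with r = 0.96 and rho = 0.95 (permutation p = 1e-05 for both, adjusted 4e-05 and 4.5e-05), 0.96 without the 2 most distant mice and 0.98, 0.98 and 0.95 within the index series. Pck1 and G6pc were more loosely related, with r = 0.54 and rho = 0.60 (permutation p = 0.00379 and 0.00137, adjusted 0.0062 and 0.00235), 0.54 without 2 mice and 0.23, 0.69 and 0.80 within the series, so the relation was weak in the first. Fbp1 and Hk2 ran opposite, with r = -0.83 and rho = -0.76 (permutation p = 1e-05 and 3e-05, adjusted 4e-05 and 0.000108), -0.78 without 2 mice and -0.85, -0.91 and -0.72 within the series. Ldha went with the gluconeogenic side, at r = 0.86 and rho = 0.84 with Fbp1 (permutation p = 1e-05 for both, adjusted 4e-05 and 4.5e-05), 0.81 without 2 mice and 0.83, 0.91 and 0.83 within the series. Hk1 followed Pkm alone, with r = 0.60 and rho = 0.61 (permutation p = 0.00126 and 0.00117, adjusted 0.00239 and 0.00211), 0.65 without 2 mice and 0.59, 0.53 and 0.63 within the series.

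By Spearman's rho on the same values over 11523 genes averaging 5 CPM or more, given as a description, the genes most like Fbp1 were Sdha and Aldh4a1 (0.98 each), and those most like Pcx were Tcn2 (0.98) and Aldh4a1 (0.97). Pck1 was most like Susd3 (0.91) and Fmnl1 (0.90), and G6pc most like Bid (0.88). Ldha was nearest to C8g and Vdac1 (0.94 each), and Pkm to Rab25 (0.90) and Wnt7b (0.86). Hk2 was nearest to Itgam and Zfp408 (0.88 each), Pfkp to Arid3a and Wdr1 (0.87 each), and Hk1, with the lowest values, to Pfkl (0.76) and Tmem38a (0.75).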

How the data were processed

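Kidney RNA of 31 mice was profiled with stranded mRNA libraries. The authors deposited raw counts per gene, made by trimming paired reads with Trim Galore, alignment to GRCm38 with STAR and counting of reads that map once with HTSeq 0.6.1; the annotation and strand setting are not given in the sources used here. Rows naming no gene were left out: those for no feature and ambiguous held 10.4 to 12.5% and 0.381 to 0.503% of uniquely mapped counts per mouse, and that for not unique 17.8 to 21.2% of these and itself together.

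Groups came from the sample labels. Genes passing edgeR's default filter (15185) were scaled by TMM and fitted in edgeR 4.0.16 (R 4.3.3) with a quasi-likelihood model of 3 groups over all 31 mice, with Benjamini-Hochberg adjustment over all genes tested. Standard errors are the log2 fold change divided by the root of F. Levels per kilobase used exon lengths of GENCODE vM21, which may differ from the authors' annotation. Isozyme ratios used a pseudocount of 0.5 CPM and permutation of mice, exact where a group had under 10 mice and otherwise with 100000 resamples. Correlations used log2(CPM + 1). DESeq2 1.42.0 was an alternative, and the other steps ran in Python 3.11.15 (scipy 1.17.1, numpy 2.4.6, pandas 2.3.3; plots with matplotlib 3.10.9). The members and all gene lists were chosen with earlier results of these data known. Named beyond the members are the 2 genes of each pathway list with the smallest p in a comparison and the 2 genes most correlated with each member; the marker genes named were chosen after their values were seen. Of list symbols, Tkfc, Gk, Tigar and Adgre1 were matched by an older symbol. A few results that these rules would name are not reported here.

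On simulated counts with dispersions and means as measured here, 74% of genes changed by a log2 of 0.5 and 95% of those changed by 1 were called for PBS against wild type (15101 genes tested), and 87% and 97% for RGLS4326 against PBS (15099 genes), with 11 unchanged genes called in each. In each comparison 100 genes were changed by each size, whereas the data gave 11281 and 2402 calls. These shares therefore need not hold for the calls reported here. Same-numbered mice did not deviate together, so the numbers were not taken as pairs. Alternatives covered the filter, normalization, DESeq2, 2 groups alone, index series, replicate block, pseudocounts, each mouse left out and, chosen after seeing the data, division by proximal tubule markers.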

Additional observations from a re-analysis of the deposited data

Results flagged for a closer look

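Among 15 measures of the members and their ratios, 1 had a wild-type mouse far from the rest of its group. The test covers groups of 4 to 10 samples, so the PBS and RGLS4326 groups were not tested. The log2 ratio of Pck1 to Pck2 was 6.18 in WT/CD1 mouse 5, whose gap to the nearest wild-type mouse took 0.803 of the group's whole range, over the critical value of 0.71 for 5 samples. Chance alone marks about 1 in 20 such groups. That mouse also had the lowest Pck1 of the wild-type mice, 1486 CPM.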

How the results depend on the processing

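The directions of the 9 members in comparisons with wild type were kept under every tested alternative of the count model, and DESeq2 and its size factors changed no count of members or of all genes by over 1.5 times. Between treatments, however, DESeq2 called more genes of several lists than edgeR: 7 against 4 proximal tubule markers, 6 against 3 for substrate supply, 9 against 5 for pyruvate entry, 5 against 2 regulators, 4 against 2 further glycolytic enzymes, 2 against 1 for fructose 2,6-bisphosphate and 2 against 0 (2 at an unadjusted p under 0.05) specific to gluconeogenesis. Of these 7 lists, edgeR without RGLS4326-treated mouse 9 called 0 or 1 in each. The treatment results were less stable, and where no cause is stated the cause was not tested. Between RGLS4326 and PBS, the 2 members called became 0 with no filter on low counts, 0 with the 2 groups fitted alone, 1 with index series as a covariate, 0 within each of the 3 index series, which hold fewer mice, and 1 with a log2 fold change over 0.5 required; leaving out 1 mouse gave 0 to 2. At an unadjusted p under 0.05 (edgeR) there were 4 with no filter, 4 with 2 groups, and 0, 0 and 4 within the series, against 4 of 9 in the model of all mice; DESeq2 on all mice called 2. Pck1 then had adjusted p of 0.0523, 0.061 and 0.0547 in the first 3 of these settings. Over all genes the 2402 calls became 1480 with 2 groups, 0 within each series (280, 2981 and 3101 at an unadjusted p under 0.05, edgeR) and 327 with the size threshold, and 618 to 3999 without 1 mouse, moving by over 1.5 times without PBS-treated mice 2, 3, 4, 5, 9 or 10 or RGLS4326-treated mice 2, 3, 6, 8, 9, 10 or 13. For PBS against wild type, 11281 calls became 6918 in the second series and 6442 with the size threshold (10895 to 11392 without 1 mouse, members 9 to 9). For RGLS4326 against wild type, 8 members and 9861 genes became 0 (7 at an unadjusted p under 0.05, edgeR) and 392 in the second series, and 4789 genes with the size threshold (9219 to 10234 without 1 mouse, members 8 to 8). Correlated pairs numbered 26 without RGLS4326-treated mouse 9.

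With mouse number as a replicate block, which pairs mice that share only a number (mean correlation of deviations -0.0849 over 12 pairs of RGLS4326- and PBS-treated mice), the treatment comparison had 0 members (2 at an unadjusted p under 0.05, edgeR) and 303 genes called, with Pck1 at 0.40 (adjusted p = 0.13).

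Signs turned in the first index series for RGLS4326 against PBS in Hk2 (0.11), Pfkp (0.08) and Ldha (-0.00). Division by the proximal tubule marker sum shifts all genes of a comparison alike, so turned signs on that scale follow from the shift. Per marker sum they turned for PBS against wild type in Fbp1 (0.19), Pcx (0.19) and Ldha (1.0), for RGLS4326 against PBS in G6pc (-0.03), Fbp1 (-0.11), Pcx (-0.08) and Ldha (-0.34), none of which had passed on the CPM scale, and for RGLS4326 against wild type in Pck1 (0.16), Fbp1 (0.09), Pcx (0.10) and Ldha (0.66). The difference of Hk2/Hk1 between PBS and wild type was 0.57 to 2.20 over pseudocounts. Differences of ratios near 0 turned too: Hk2/Hk1 between treatments (0.02 with a pseudocount of 5, -0.11 to 0.05 without 1 mouse), Pkm/Pklr for PBS against wild type (0.02 with that pseudocount, 0.01 averaged within series, -0.06 to 0.02 without 1 mouse) and for RGLS4326 against wild type (-0.02 to 0.06 without 1 mouse), and Pfkp/Pfkl between treatments (-0.00 to 0.08 without 1 mouse). Hk2 in wild type rests on 5 to 20 reads a mouse, so its fold change is the least precise.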
